A study of Mus musculus with 12 samples.

Results

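Fatty acids are burned in mitochondria and, for very long and branched chains, shortened first in peroxisomes, and the genes described here encode the enzymes, carriers and import factors of both routes. The set held 37 genes, chosen by name as a module of mitochondrial and peroxisomal fatty acid oxidation. The choice was made with earlier results of these data known. All 37 were among the 13715 genes of the deposited table. By the usual site of their proteins, 20 were assigned to mitochondria and 11 to peroxisomes, while 6 belong to both or to other membranes. RNA was sequenced from mouse bone marrow-derived macrophages, which are bone marrow cells grown into macrophages with the growth factor M-CSF at 40 ng/ml for 7 days. The 12 libraries formed 4 groups of 3. They were KO cells given IL-4 at 20 ng/ml for 24 h, WT cells given the same IL-4, KO cells left without IL-4 (mock), and WT cells left without IL-4. KO cells came from LysMCre Stk11 fl/fl mice, in which a Cre recombinase expressed from the Lyz2 (lysozyme M) locus of myeloid cells cuts out the floxed gene Stk11. Stk11 encodes the kinase LKB1, the activator of the energy sensor AMPK. The WT mice were not described as carrying Cre, so loss of Stk11 and presence of the Cre insertion cannot be told apart. The sources used here give neither the age of the mice nor whether libraries of a group came from different animals. The p-values therefore reflect only how far these libraries spread, which may be technical.

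In mitochondria, a fatty acid is activated to its acyl-CoA, passed to carnitine by Cpt1a, carried across the inner membrane by Slc25a20 and returned to CoA by Cpt2. It is then shortened in cycles of dehydrogenation, hydration, a second oxidation and thiolytic cleavage, with electrons leaving the first step through the electron transfer flavoprotein. Peroxisomes run a parallel cycle whose first enzyme, an acyl-CoA oxidase, makes hydrogen peroxide that catalase breaks down, and their proteins arrive through Pex import factors. In macrophages IL-4 acts through STAT6 and is known for turning on fatty acid use, with PPARγ and its coactivator PGC-1β among the factors involved.

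Stk11 was measured at 3.87 to 9.24 CPM (counts scaled to library size) in the 6 KO libraries, against 37.7 to 54.4 CPM in the 6 WT libraries. Lyz2 was at 43.1 and 43.4 CPM in the libraries of KO replicate 2. The other 4 KO libraries held 15362 to 21618 CPM and the WT libraries 28471 to 44637 CPM, so KO replicate 2 stands apart. Among genes of the set, calls that were lost without its 2 libraries are marked as such. For named genes outside the set, fits without these or other libraries and the correction for gene length are not given here. Library totals ran from 30651627 to 39136822 counts, and the least counted member still had 364 counts in its lowest library. The 7 macrophage markers were all present, at a summed 6790 to 7101 CPM in KO mock libraries against 7146 to 7399.8 CPM in WT mock libraries, and 7946 to 8262 CPM in KO libraries with IL-4 against 8007 to 8458 CPM in WT libraries with IL-4. In KO against WT cells 2 of them were higher and 3 lower in mock, and 2 were higher and 1 lower with IL-4. Of all genes 15.7% were higher and 18.8% lower in mock, and 8.57% higher and 10.2% lower with IL-4. In mock, Itgam was at 80.5 to 115 CPM in KO libraries against 168 to 189.7 CPM in WT libraries, Csf1r at 1802 to 2009 CPM in KO libraries against 2375 to 2650 CPM in WT libraries, and Adgre1 at 771 to 823 CPM in KO libraries against 1025 to 1165 CPM in WT libraries. The other way went Cd14, at 226 to 249 CPM in KO mock libraries against 84.4 to 113 CPM in WT mock libraries. Cd68 was likewise higher, at 3370 to 3878 CPM in KO mock libraries against 3055 to 3229 CPM in WT mock libraries. The ranges of Mertk and Fcgr1 overlapped in mock. Of 10 listed markers of neutrophils and their precursors 9 were in the table. Of these, 8 were higher in KO than in WT cells in mock and 6 with IL-4, against 15.7% and 8.57% of all genes. Their sum was 561 to 1073 CPM in KO mock libraries against 197 to 320 CPM in WT mock libraries, and 423 to 859 CPM in KO libraries with IL-4 against 184 to 288 CPM in WT libraries with IL-4. Of this neutrophil list Elane was not in the table, Mpo was at most 2.06 CPM, and Ly6g and Cebpe were at most 0.856 and 0.718 CPM. Pf4, which made up nearly all of the erythroid and megakaryocyte list, was at 573 to 643 CPM in KO mock libraries, against 39.5 to 57.6 CPM in WT mock libraries, while the haemoglobin genes and Gata1 of that list were not in the table. None of 4 B cell and 4 T cell markers was in the table. The part of these markers in the results below was not tested.

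Catalase RNA exceeded that of every other gene of the set. Per kilobase of counted gene length, Cat was at 230.4 ± 8.6 RPKM in KO cells with IL-4, 165 ± 5.04 RPKM in WT cells with IL-4, 348 ± 14.5 RPKM in KO mock cells and 237 ± 6.55 RPKM in WT mock cells (mean ± SD, n = 3 each). The next level was that of Acaa2, the mitochondrial 3-ketoacyl-CoA thiolase, at 87.6 ± 1.78, 79.8 ± 5.94, 85.0 ± 4.69 and 67.04 ± 2.40 RPKM in the same order of groups. Cpt1a, the liver-type carnitine palmitoyltransferase and the gate of mitochondrial import, was among the 7 highest members in every group. At the low end were Acad9, Acad10 and Acad11, which stayed between 1.74 and 3.33 RPKM in the group means. Abcd2, a peroxisomal carrier of very long-chain acyl-CoA, moved most within this order, standing at rank 18 of 37 in KO cells with IL-4 and rank 17 in WT cells with IL-4, against rank 33 in KO mock cells and rank 28 in WT mock cells.

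**Figure D1:**
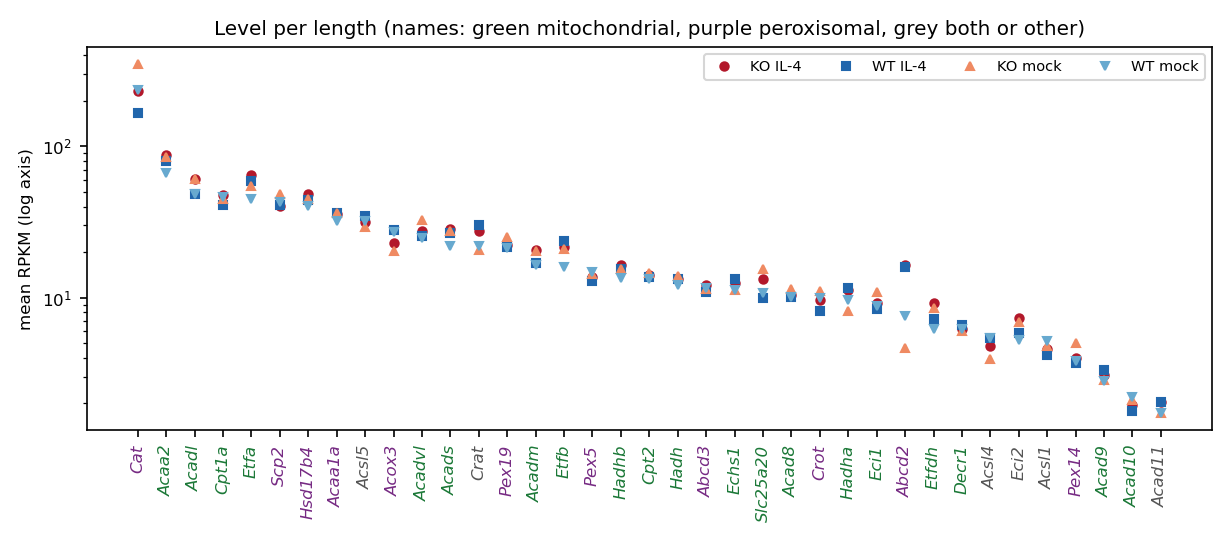
Mean RPKM of the 37 genes on a log axis, 1 point per group of 3 libraries, ordered by the WT mock level. Cat lies far above the others at 165 to 348 RPKM, and Abcd2 shows the widest gap between IL-4 and mock groups.

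The first comparison was KO against WT cells in mock, the state before IL-4. Here 18 of the 37 genes were higher and 4 were lower in KO cells, counting an adjusted p below 0.05 in edgeR's quasi-likelihood test as a call; ± after a fold change is its SE. Of all genes 34.5% were called, 15.7% as higher and 18.8% as lower. The median log2 fold change of the 37 genes was 0.18, against -0.02 over all genes. Of the 20 mitochondrial genes 12 were higher and 1 was lower, of the 11 peroxisomal genes 5 were higher and 2 lower, and of the remaining 6 genes 1 was higher and 1 lower. The changes were small: among the called genes the largest were 0.55 for Cat and -0.71 for Abcd2 on the log2 scale. Without both libraries of KO replicate 2, 16 were higher and 3 lower, against 13.9% and 15.1% of all genes. With the replicate number as a block in the fit, 13 were higher and 3 lower, where 3722 of 13715 genes were called in either direction. The calls of Hadha, Hadhb, Hadh, Eci1, Hsd17b4 and Scp2 were lost in that fit. In bulk RNA, fewer cells of a type and less RNA per cell cannot be told apart.

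**Figure D2:**
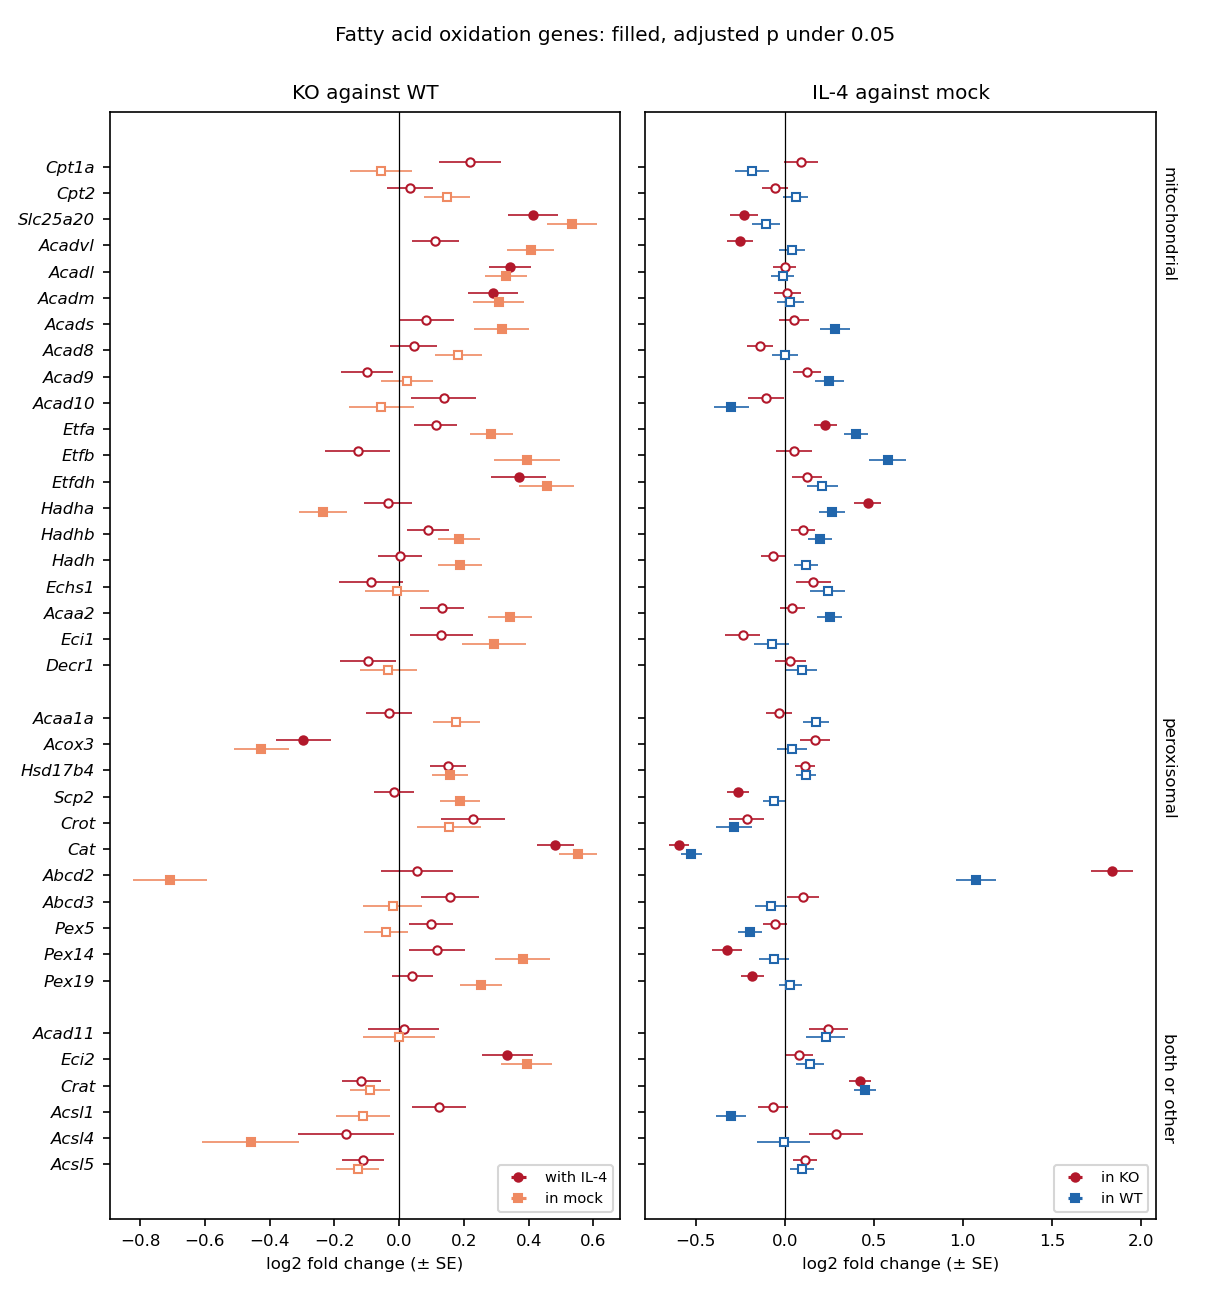
Log2 fold change ± SE of each of the 37 genes for KO against WT (left) and IL-4 against mock (right), with filled symbols for an adjusted p under 0.05. Most mitochondrial genes lie right of 0 for KO against WT in mock, and Abcd2 lies far to the right for IL-4 against mock in both genotypes.

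Of the carnitine shuttle only the translocase was called. Slc25a20 was at 80.7, 72.2 and 71.5 CPM in KO mock libraries, against 47.8, 54.3 and 52.9 CPM in WT mock libraries. Every KO value lay above every WT value, a log2 fold change of 0.53 ± 0.08, adjusted p = 0.000198. Cpt1a was at 303, 358 and 367 CPM in KO mock libraries, against 342, 338 and 387 CPM in WT mock libraries. These ranges overlapped, with a log2 fold change of -0.06 ± 0.10, adjusted p = 0.688. Cpt2, the inner-membrane transferase, was at 35.1, 35.0 and 34.8 CPM in KO mock libraries, against 32.1, 32.4 and 30.1 CPM in WT mock libraries. Its KO values were all the higher ones but the test did not call it, at 0.15 ± 0.07, adjusted p = 0.125. The promoter-side sequence of Slc25a20 is shown because its gene was called in both KO against WT comparisons. It is chr9:108661886-108662087 of GRCm38.p6, plus strand, the 202 bases of the RefSeq upstream window that lie outside the deposited gene model. Capitals mark GC boxes (GGGCGG or its reverse complement CCGCCC).
Slc25a20: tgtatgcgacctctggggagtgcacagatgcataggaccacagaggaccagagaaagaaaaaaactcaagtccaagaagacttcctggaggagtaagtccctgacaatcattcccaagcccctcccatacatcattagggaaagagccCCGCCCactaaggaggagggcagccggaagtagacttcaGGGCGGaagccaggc

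The acyl-CoA dehydrogenases, which take the first electrons from chains of falling length, rose in KO mock cells at each of the 4 classic chain lengths, although the call of the short-chain enzyme was lost after a correction for gene length (0.20, adjusted p = 0.0855). Acadvl, for very long chains, was at 96.2, 81.5 and 85.6 CPM in KO mock libraries, against 61.8, 69.4 and 67.4 CPM in WT mock libraries. Acadl, for long chains, was at 128, 121 and 118 CPM in KO mock libraries, against 91.2, 101 and 99.8 CPM in WT mock libraries. The KO values of both genes lay above all WT values. Log2 fold changes were 0.41 ± 0.07, adjusted p = 0.000834 for Acadvl and 0.33 ± 0.06, adjusted p = 0.00154 for Acadl. The medium-chain enzyme Acadm gave 0.31 ± 0.08, adjusted p = 0.00762 and the short-chain enzyme Acads 0.32 ± 0.08, adjusted p = 0.0106. Acad8, which acts on the isobutyryl-CoA of valine breakdown, was not called at 0.18 ± 0.07, adjusted p = 0.0661. Acad9, better known for assembly of respiratory complex I, and Acad10 gave 0.02 and -0.06. After the correction for gene length Acad9 was called as higher (0.24, adjusted p = 0.0369). The sequence before Acadl is shown for the number of its GC boxes, 4 in 250 bases, again in capitals. It is chr1:66863310-66863559 of GRCm38.p6, minus strand, printed in the direction of transcription.
Acadl: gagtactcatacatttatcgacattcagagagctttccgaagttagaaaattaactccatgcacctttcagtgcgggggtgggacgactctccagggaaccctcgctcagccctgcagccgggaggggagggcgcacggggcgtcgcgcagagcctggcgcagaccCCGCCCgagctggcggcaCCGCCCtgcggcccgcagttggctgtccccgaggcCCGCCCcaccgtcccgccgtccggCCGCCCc

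All 3 genes of the electron transfer chain that serves the dehydrogenases were higher in KO mock cells, of which Etfa was not called after the correction for gene length (0.14, adjusted p = 0.0805). Etfdh, the oxidoreductase that passes the electrons to ubiquinone, was at 68.1, 65.2 and 58.1 CPM in KO mock libraries, against 45.0, 45.0 and 49.5 CPM in WT mock libraries. The KO values were all above the WT values, with a log2 fold change of 0.46 ± 0.09, adjusted p = 0.00111. Etfa and Etfb, the subunits of the flavoprotein itself, gave 0.28 ± 0.07, adjusted p = 0.00433 and 0.39 ± 0.10, adjusted p = 0.00905.

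Among the later steps, the subunits of the mitochondrial trifunctional protein went in opposite directions. Hadha, the alpha subunit with hydratase and dehydrogenase activity, was at 65.7, 71.6 and 76.8 CPM in KO mock libraries, against 80.1, 86.5 and 85.3 CPM in WT mock libraries. Hadhb, the beta subunit with thiolase activity, was at 106, 99.9 and 98.8 CPM in KO mock libraries, against 85.1, 92.6 and 90.7 CPM in WT mock libraries. Neither gene's groups overlapped: Hadha was lower in each KO library and Hadhb higher. The log2 fold changes were -0.23 ± 0.07, adjusted p = 0.0247 for Hadha and 0.18 ± 0.07, adjusted p = 0.0409 for Hadhb. Both calls were thin. Hadha was lost in 9 of 12 fits that left out 1 library and stood at -0.01 (adjusted p = 0.927) after a correction for gene length, and Hadhb was lost in 4 of 12. Neither was called without both libraries of KO replicate 2, with adjusted p = 0.115 for Hadha and 0.0637 for Hadhb. Hadha and Hadhb lie head to head on chromosome 5, and the deposited models leave 85 bases between them. That gap is shown because it is upstream of both genes: chr5:30155163-30155247 of GRCm38.p6, printed on the plus strand, the strand of Hadhb. It holds 2 GC boxes, in capitals, and has 69.4% G and C.
Hadha_Hadhb_gap: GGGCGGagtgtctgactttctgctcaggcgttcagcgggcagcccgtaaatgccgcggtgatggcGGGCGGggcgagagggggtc

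Of the other enzymes of the mitochondrial cycle, Acaa2 was higher in KO mock cells at 0.34 ± 0.07, adjusted p = 0.00172. The isomerase Eci1 gave 0.29 ± 0.10, adjusted p = 0.0332 and the short-chain dehydrogenase Hadh 0.19 ± 0.07, adjusted p = 0.0468. Leaving out 1 library lost Eci1 in 3 and Hadh in 4 of 12 fits, and Eci1 was not called after the length correction (0.17, adjusted p = 0.154). The hydratase Echs1 and the dienoyl reductase Decr1 were not called, at -0.01 and -0.03.

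In the peroxisomal group, catalase was the gene with the smallest adjusted p of the 37 in this comparison. Cat was at 922, 937 and 865 CPM in KO mock libraries, against 627, 632 and 600.2 CPM in WT mock libraries. The lowest KO value exceeded the highest WT value, and the log2 fold change was 0.55 ± 0.06, adjusted p = 1.79e-05. Abcd2 was at 29.8, 26.3 and 26.4 CPM in KO mock libraries, against 45.2, 41.4 and 48.1 CPM in WT mock libraries. All KO values were below all WT values, at -0.71 ± 0.11, adjusted p = 0.000421. Acox3, an acyl-CoA oxidase for branched chains, was at 217, 241 and 243 CPM in KO mock libraries, against 311, 286 and 344 CPM in WT mock libraries. It was lower in each KO library, at -0.43 ± 0.08, adjusted p = 0.00166, but at -0.10 (adjusted p = 0.201) after the correction for gene length. The sequence upstream of Cat, chr2:103485161-103485403 of GRCm38.p6 on the minus strand, is shown because Cat was called in all 4 comparisons of 2 groups. Capitals mark 1 GC box and 4 CCAAT boxes (CCAAT or its reverse complement ATTGG) within 243 bases.
Cat: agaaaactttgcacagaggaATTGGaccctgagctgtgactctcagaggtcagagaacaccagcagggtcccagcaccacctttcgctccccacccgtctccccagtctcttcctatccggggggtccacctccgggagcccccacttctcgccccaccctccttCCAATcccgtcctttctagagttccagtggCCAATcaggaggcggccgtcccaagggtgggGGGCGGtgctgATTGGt

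The remaining peroxisomal enzymes moved less. Hsd17b4, the D-bifunctional protein of the peroxisomal cycle, was at 152, 154 and 154 CPM in KO mock libraries, against 138, 139 and 135 CPM in WT mock libraries. Acaa1a, the peroxisomal thiolase, was at 161, 158 and 163 CPM in KO mock libraries, against 147, 139.6 and 141 CPM in WT mock libraries. KO values lay above WT values for both genes, yet the test called Hsd17b4 (0.16 ± 0.06, adjusted p = 0.0440) and not Acaa1a (0.18 ± 0.07, adjusted p = 0.0687). Acaa1a was called in 8 of 20 alternative runs. Scp2, whose longer product is a thiolase for branched chains, was higher at 0.19 ± 0.06, adjusted p = 0.0305. The call of Hsd17b4 was lost in 5 of 12 fits that left out 1 library and without both libraries of KO replicate 2 (adjusted p = 0.0882), that of Scp2 in 4 of 12, and both after the length correction (adjusted p = 0.169 and 0.0632). Of the import factors, the docking protein Pex14 and the membrane-protein chaperone Pex19 were higher at 0.38 ± 0.09, adjusted p = 0.00376 and 0.25 ± 0.06, adjusted p = 0.00766, while the cargo receptor Pex5 gave -0.04. The octanoyltransferase Crot and the transporter Abcd3 were not called, at 0.15 and -0.02.

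Among the 6 genes of both or other sites, the isomerase Eci2 was at 39.4, 39.1 and 36.4 CPM in KO mock libraries, against 26.7, 31.7 and 29.1 CPM in WT mock libraries. It did not overlap between the groups and was higher at 0.39 ± 0.08, adjusted p = 0.00173. Acsl4, an acyl-CoA synthetase that prefers arachidonate, was at 16.5, 23.7 and 23.6 CPM in KO mock libraries, against 31.4, 27.9 and 28.6 CPM in WT mock libraries. It was lower in each KO library, at -0.46 ± 0.15, adjusted p = 0.0293, and the call was lost in 5 of 12 fits that left out 1 library. Acsl1, Acsl5, Crat and Acad11 were not called, though Acad11 was called as higher after the correction for gene length (0.26, adjusted p = 0.0238).

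Gene length moved with these differences. Across the 37 genes the log2 fold change in mock fell with counted length (Spearman's rho -0.54), and across all 13715 genes likewise (rho -0.29). These are correlations across genes, which are not independent replicates. With the length trend taken out, 15 of the 37 genes were higher and 2 lower, against 17.6% and 15.4% of all genes, and the median was 0.19. Of the 22 calls, 12 held in every alternative run, namely Slc25a20, Acadvl, Acadl, Acadm, Etfb, Etfdh, Acaa2, Cat, Abcd2, Pex14, Pex19 and Eci2.

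**Figure D3:**
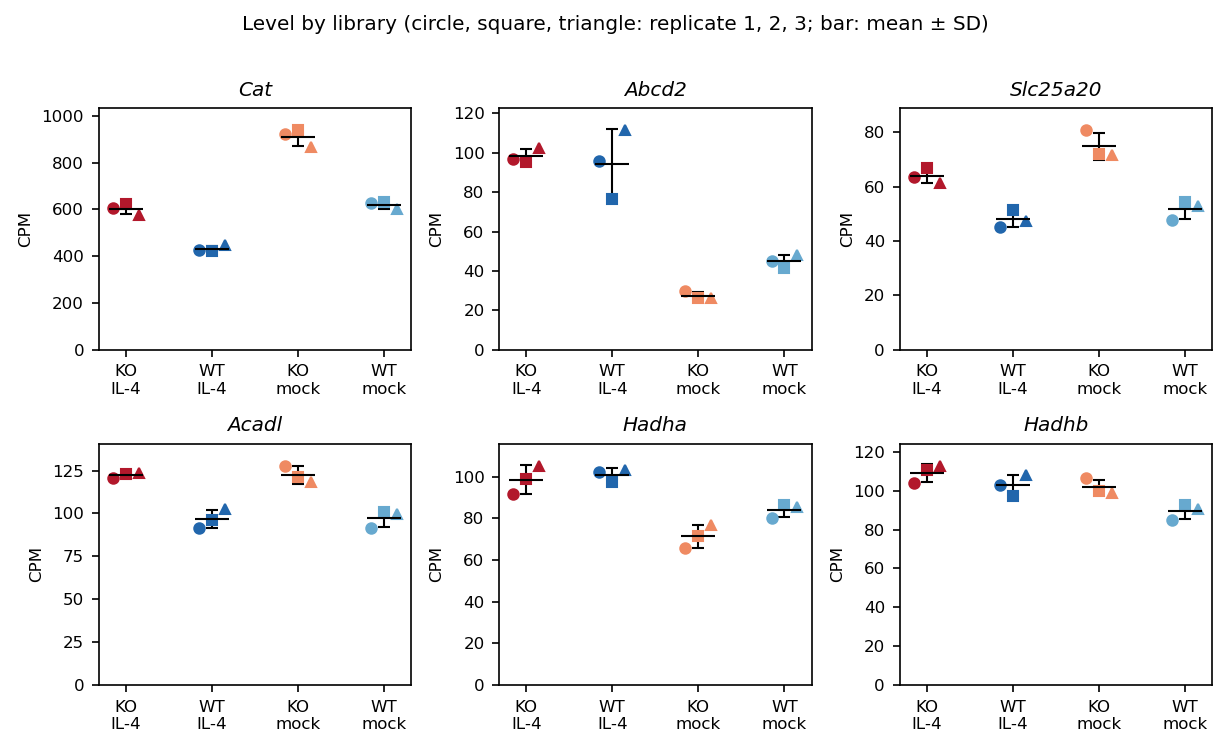
CPM of 6 genes in each of the 12 libraries, with mean ± SD per group and axes from 0. Cat, Slc25a20 and Acadl are higher in KO than in WT libraries in both conditions, Abcd2 is higher with IL-4, and Hadha and Hadhb differ in opposite directions between KO and WT in mock.

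The second comparison was KO against WT cells after 24 h of IL-4. Here 6 of the 37 genes were higher and 1 was lower in KO cells, against 8.57% of all genes called higher and 10.2% lower. The share of the 37 genes that was called, 18.9%, was close to the 18.8% of all genes. The median log2 fold change was 0.09, and -0.01 over all genes. By site, 4 of 20 mitochondrial genes were higher and none lower, and of 11 peroxisomal genes 1 was higher and 1 lower. Without both libraries of KO replicate 2, 4 were higher and none lower, against 5.21% and 6.44% of all genes.

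The 6 higher genes, Slc25a20, Acadl, Acadm, Etfdh, Cat and Eci2, were also higher in mock, and the lower gene, Acox3, was also lower in mock. These comparisons share no library, though mock and IL-4 libraries with equal numbers deviated together. The share of all genes called alike in both comparisons is not given here. The agreement is therefore not read as particular to the set. Slc25a20 was at 63.6, 66.7 and 61.3 CPM in KO libraries with IL-4, against 45.3, 51.3 and 47.4 CPM in WT libraries with IL-4, a log2 fold change of 0.41 ± 0.08, adjusted p = 0.00194. Cat was at 607, 622 and 578 CPM in KO libraries with IL-4, against 425, 422 and 446 CPM in WT libraries with IL-4, a log2 fold change of 0.48 ± 0.06, adjusted p = 6.88e-05. Etfdh was at 69.2, 71.8 and 67.7 CPM in KO libraries with IL-4, against 52.3, 49.4 and 59.9 CPM in WT libraries with IL-4, a log2 fold change of 0.37 ± 0.08, adjusted p = 0.00707. For these 3 genes no KO value reached down to a WT value. Acadl was at 121, 123 and 124 CPM in KO libraries with IL-4, against 91.7, 95.9 and 102 CPM in WT libraries with IL-4, again without overlap and at 0.34 ± 0.06, adjusted p = 0.00205. Slc25a20, Acadl, Etfdh and Cat were the 4 calls that held in every alternative run. Acadm and Eci2 gave 0.29 ± 0.08, adjusted p = 0.0168 and 0.33 ± 0.08, adjusted p = 0.00800, and neither was called without both libraries of KO replicate 2 (adjusted p = 0.0708 and 0.0535). Acadm was also lost in 3 of 12 fits that left out 1 library and with the replicate number as a block (adjusted p = 0.0556). Acox3 was at 256, 264 and 269 CPM in KO libraries with IL-4, against 334, 286 and 350.1 CPM in WT libraries with IL-4. It was lower in each KO library, at -0.30 ± 0.08, adjusted p = 0.0239, and was not called without both libraries of KO replicate 2 (-0.29, adjusted p = 0.0935). The call was also lost in 5 of 12 fits that left out 1 library and with the replicate number as a block (-0.28, adjusted p = 0.0738).

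Another 15 genes were called in mock and not with IL-4, and the share of all genes with that pattern is not given here. By itself the pattern does not show that the genotypes differ less with IL-4. The test of that difference, the interaction described below, called 1 gene, Abcd2, which is among these 15. The Abcd2 call was lost in 10 of 12 fits that left out 1 library. With the replicate number as a block the interaction also called Acadvl (-0.29, adjusted p = 0.0459) and Etfb (-0.52, adjusted p = 0.0100). Both are among the 15, and gave 0.41 and 0.39 for KO against WT in mock, and 0.11 and -0.13 with IL-4. Neither fit called any other gene of the 15. Abcd2 was at 96.8, 95.1 and 103 CPM in KO libraries with IL-4 and 95.9, 76.3 and 111 CPM in WT libraries with IL-4. The ranges overlapped, at 0.06 ± 0.11, adjusted p = 0.791. Hadha and Hadhb gave -0.03 and 0.09, and Acadvl gave 0.11. Cpt1a was at 331, 385 and 377 CPM in KO libraries with IL-4 and 313, 280.0 and 347 CPM in WT libraries with IL-4, overlapping and at 0.22 ± 0.10, adjusted p = 0.135, and it was called after the correction for gene length (0.25, adjusted p = 0.0241). Cpt2, Hsd17b4 and Acaa1a were not called either, at 0.03, 0.15 and -0.03.

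The next comparisons set IL-4 against mock within each genotype. In KO cells 4 of the 37 genes were higher with IL-4 and 6 were lower, against 16% and 14.2% of all genes (30.3% in either direction). In WT cells 9 were higher and 5 lower, against 13.6% and 13% of all genes (26.7% in either direction). The genes higher in both genotypes were Etfa, Hadha, Abcd2 and Crat, and Cat was lower in both. How many of all genes were called alike in both genotypes is not given here. Among mitochondrial genes 2 were higher and 2 lower in KO cells, and 7 were higher and 1 lower in WT cells. Among peroxisomal genes 1 was higher and 4 lower in KO cells, and 1 was higher and 3 lower in WT cells. The median log2 fold change over the 37 genes was 0.04 in KO cells and 0.06 in WT cells, and 0.004 and -0.02 over all genes. Because equally numbered libraries of a genotype deviated together, a fit with the replicate number as a block was also made, though the labels do not say what a shared number means. It called 7 genes higher and 8 lower in KO cells, where 20.3% and 18.2% of all genes were called. In WT cells it called 11 higher and 6 lower, where 16.8% and 16.7% of all genes were called. The calls it added in KO cells were Eci1 (-0.23, adjusted p = 0.0350) and Crot (-0.21, adjusted p = 0.0401) as lower, and Acox3 (0.17, adjusted p = 0.0187), Acad11 (0.25, adjusted p = 0.0353) and Acsl4 (0.30, adjusted p = 0.0332) as higher. In WT cells it added Cpt1a (-0.19, adjusted p = 0.0148) as lower, and Etfdh (0.21, adjusted p = 0.0212) and Echs1 (0.24, adjusted p = 0.00868) as higher.

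Abcd2 had the largest IL-4 response of the set. It was at 96.8, 95.1 and 103 CPM in KO libraries with IL-4, against 29.8, 26.3 and 26.4 CPM in KO mock libraries. In WT libraries it was at 95.9, 76.3 and 111 CPM with IL-4, against 45.2, 41.4 and 48.1 CPM in mock. Every IL-4 value lay above every mock value of either genotype. The log2 fold changes were 1.84 ± 0.12, adjusted p = 2.87e-08 in KO cells and 1.07 ± 0.11, adjusted p = 5.00e-06 in WT cells. Abcd3, the related half-transporter, gave 0.10 and -0.08 in KO and WT cells and was not called.

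Cat was lower with IL-4. It was at 607, 622 and 578 CPM in KO libraries with IL-4, against 922, 937 and 865 CPM in KO mock libraries, and at 425, 422 and 446 CPM in WT libraries with IL-4, against 627, 632 and 600.2 CPM in WT mock libraries. The groups did not overlap within a genotype, with log2 fold changes of -0.59 ± 0.06, adjusted p = 2.87e-06 in KO cells and -0.52 ± 0.06, adjusted p = 8.92e-06 in WT cells. The levels of KO cells with IL-4 and of WT mock cells overlapped. Crat, the carnitine acetyltransferase that buffers acetyl-CoA, was at 145, 157 and 147 CPM in KO libraries with IL-4, against 107, 112 and 116 CPM in KO mock libraries. In WT libraries it was at 166, 165 and 156 CPM with IL-4, against 119, 115 and 123 CPM in mock. It was higher with IL-4 in each pair, at 0.42 ± 0.06, adjusted p = 0.000117 in KO cells and 0.45 ± 0.06, adjusted p = 6.14e-05 in WT cells.

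Within the mitochondrial cycle, Hadha was at 91.5, 98.9 and 105 CPM in KO libraries with IL-4, against 65.7, 71.6 and 76.8 CPM in KO mock libraries, without overlap and at 0.47 ± 0.07, adjusted p = 0.000271. In WT libraries Hadha was at 102, 97.3 and 103 CPM with IL-4, against 80.1, 86.5 and 85.3 CPM in mock, again without overlap and at 0.27 ± 0.07, adjusted p = 0.0150. Its partner Hadhb was at 104, 110.4 and 113 CPM in KO libraries with IL-4 and 106, 99.9 and 98.8 CPM in KO mock libraries, overlapping and not called at 0.10 ± 0.06, adjusted p = 0.255. In WT cells Hadhb was called at 0.20 ± 0.07, adjusted p = 0.0355, and not without both libraries of KO replicate 2 (0.22, adjusted p = 0.0504). Etfb was at 25.3, 31.9 and 25.3 CPM in WT libraries with IL-4, against 17.9, 20.3 and 17.01 CPM in WT mock libraries, each IL-4 value being higher, at 0.58 ± 0.10, adjusted p = 0.000632. In KO cells Etfb was at 25.2, 25.5 and 24.7 CPM with IL-4 and 25.9, 23.0 and 23.8 CPM in mock, which overlapped, at 0.05 ± 0.10, adjusted p = 0.723. Etfa was higher in both genotypes, at 0.23 ± 0.07, adjusted p = 0.0162 in KO cells and 0.40 ± 0.07, adjusted p = 0.000316 in WT cells, but the KO call was lost without both libraries of KO replicate 2 (0.21, adjusted p = 0.0981). Acads, Acad9 and Acaa2 were higher in WT cells at 0.28, 0.25 and 0.25, and not called in KO cells at 0.05, 0.13 and 0.04. The WT call of Acad9 was lost in 4 and that of Acads in 1 of 12 fits that left out 1 library. The test of a difference between the genotypes called none of Acads, Acad9 and Acaa2, also not with the replicate number as a block.

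In the shuttle and at its entry the changes were small. Slc25a20 was at 63.6, 66.7 and 61.3 CPM in KO libraries with IL-4, against 80.7, 72.2 and 71.5 CPM in KO mock libraries, lower without overlap and at -0.23 ± 0.08, adjusted p = 0.0383. The call was lost without both libraries of KO replicate 2 (-0.28, adjusted p = 0.0631). In WT cells Slc25a20 gave -0.11 ± 0.08, adjusted p = 0.358. Cpt1a was not called in KO cells (0.09 ± 0.10, adjusted p = 0.519) or WT cells (-0.18 ± 0.10, adjusted p = 0.184). Cpt2 gave -0.05 in KO cells and 0.06 in WT cells. Acadvl was lower with IL-4 in KO cells at -0.25 ± 0.07, adjusted p = 0.0166 and gave 0.04 in WT cells. Acsl1, an acyl-CoA synthetase, was at 43.9, 40.6 and 47.2 CPM in WT libraries with IL-4, against 52.5, 51.2 and 58.5 CPM in WT mock libraries, lower without overlap and at -0.30 ± 0.08, adjusted p = 0.0149. Acad10 was lower in WT cells at -0.30 ± 0.10, adjusted p = 0.0401, and lost in 9 of 12 fits that left out 1 library and without both libraries of KO replicate 2 (adjusted p = 0.0891).

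Of the peroxisomal matrix and import genes, Scp2 was at 141, 140.0 and 141 CPM in KO libraries with IL-4, against 175, 164 and 167 CPM in KO mock libraries. It was lower in each IL-4 library, at -0.26 ± 0.06, adjusted p = 0.00534, and gave -0.06 in WT cells. Pex14 was at 24.5, 26.3 and 24.1 CPM in KO libraries with IL-4, against 34.8, 29.1 and 30.0 CPM in KO mock libraries, lower without overlap and at -0.32 ± 0.09, adjusted p = 0.0104. Pex19 was lower in KO cells at -0.18 ± 0.06, adjusted p = 0.0454, a call lost in 9 of 12 fits that left out 1 library and without both libraries of KO replicate 2 (adjusted p = 0.0636). In WT cells Crot was lower at -0.29 ± 0.10, adjusted p = 0.0454 and Pex5 at -0.20 ± 0.07, adjusted p = 0.0463, but these calls were lost in 11 and 10 of 12 fits that left out 1 library and without both libraries of KO replicate 2 (adjusted p = 0.101 and 0.117). Hsd17b4 and Acaa1a were called in neither genotype, Hsd17b4 at 0.11 in KO cells and 0.12 in WT cells, and Acaa1a at -0.03 in KO cells and 0.18 in WT cells. After the correction for gene length Acaa1a was called as higher in WT cells (0.20, adjusted p = 0.0479). Of the calls, 5 of 10 in KO cells (Hadha, Scp2, Cat, Abcd2 and Crat) and 6 of 14 in WT cells (Etfa, Etfb, Acaa2, Cat, Abcd2 and Crat) held in every alternative run.

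Whether the IL-4 response differed between the genotypes was tested as an interaction, in which the WT response is subtracted from the KO response. Of the 37 genes 1 was called, Abcd2, as higher. Of all genes 0.736% were called, 0.328% as higher and 0.408% as lower. Its difference was 0.76 ± 0.16, adjusted p = 0.0462: by replicate number its IL-4 change in log2 CPM was 1.70, 1.85 and 1.96 in KO pairs, against 1.09, 0.88 and 1.21 in WT pairs. All KO changes were larger than all WT changes. The call was lost in 10 of 12 fits that left out 1 library, while the size stayed similar. It was also lost without both libraries of KO replicate 2 (0.73, adjusted p = 0.133). That fit called 0 of all genes in the interaction, so this loss is not particular to Abcd2. The interaction contains the KO and WT mock values, in which Abcd2 was lower in KO cells, so it is not independent of the first comparison. With the replicate number as a block, 6.5% of all genes were called higher and 5.14% lower. Of the 37 genes Cpt1a (0.28, adjusted p = 0.0310) and Abcd2 (0.78, adjusted p = 0.00124) were higher while Acadvl (-0.29, adjusted p = 0.0459) and Etfb (-0.52, adjusted p = 0.0100) were lower. Etfb's IL-4 change was -0.04, 0.15 and 0.05 in KO pairs, against 0.49, 0.65 and 0.57 in WT pairs, without overlap. Cpt1a's was 0.13, 0.11 and 0.04 in KO pairs, against -0.13, -0.27 and -0.16 in WT pairs, positive in each KO pair and negative in each WT pair. Acadvl's was -0.37, -0.13 and -0.25 in KO pairs, against 0.10, -0.01 and 0.04 in WT pairs. The interaction's log2 fold change rose with counted length across the 37 genes (Spearman's rho 0.55) and across all genes (rho 0.33). After the correction for gene length the IL-4 change of Cpt1a was -0.02 in KO cells and -0.13 in WT cells.

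**Figure D4:**
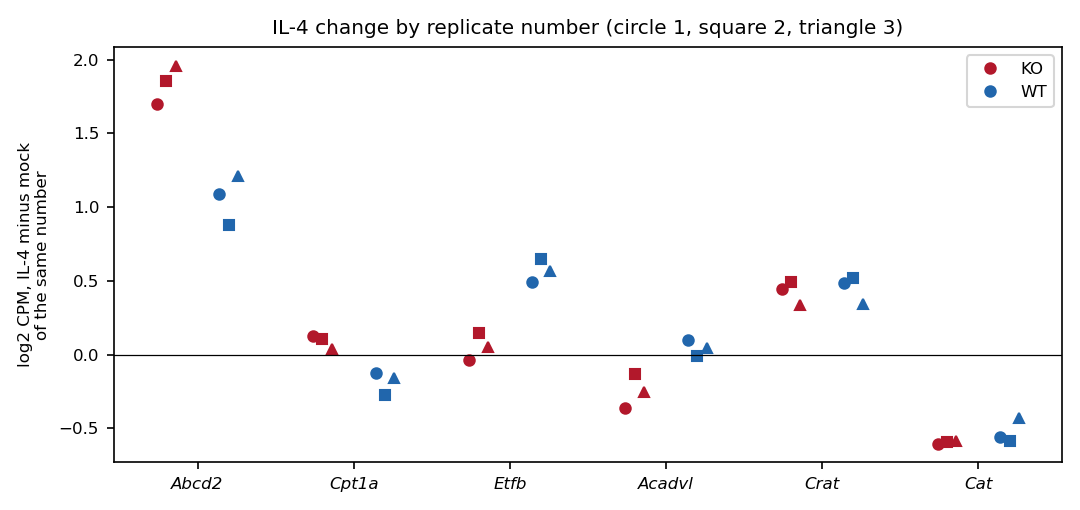
IL-4 minus mock in log2 CPM for libraries of the same replicate number, for 6 genes in KO and WT pairs. Abcd2 lies at 1.70 to 1.96 in KO pairs and 0.88 to 1.21 in WT pairs, while Cat and Crat move alike in both.

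Mitochondrial and peroxisomal genes were set side by side through each library's mean deviation, the average over a group of genes of log2 CPM minus that gene's mean over the 12 libraries. For the 20 mitochondrial genes it was 0.086 ± 0.025 in KO cells with IL-4, -0.017 ± 0.043 in WT cells with IL-4, 0.065 ± 0.050 in KO mock cells and -0.135 ± 0.058 in WT mock cells (SD, n = 3 each). For the 11 peroxisomal genes it was 0.065 ± 0.015, -0.029 ± 0.069, 0.013 ± 0.012 and -0.048 ± 0.029 in the same order of groups. The WT mock libraries were the 3 lowest for the mitochondrial genes, and for the peroxisomal genes the WT libraries with IL-4 reached from below the WT mock libraries to within the KO range. The KO minus WT change was 0.20 for mitochondrial and 0.06 for peroxisomal genes in mock, and 0.10 and 0.09 with IL-4. The difference of the changes, mitochondrial minus peroxisomal, was 0.14 in mock and 0.01 with IL-4. Within the KO and WT mock groups the libraries spread by 0.041 and 0.067 (SD) in the same difference. For IL-4 against mock the mitochondrial genes changed by 0.02 in KO cells and 0.12 in WT cells, and the peroxisomal genes by 0.05 in KO cells and 0.02 in WT cells. The peroxisomal mean mixes opposite responses and Abcd2 weighs heavily in it. Without Abcd2 the mitochondrial minus peroxisomal difference was 0.06 for KO against WT in mock, and for IL-4 against mock it was 0.15 in KO cells and 0.20 in WT cells, where it had been -0.03 and 0.10 with Abcd2. A test over these members was not made, because they were chosen with results known.

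**Figure D5:**
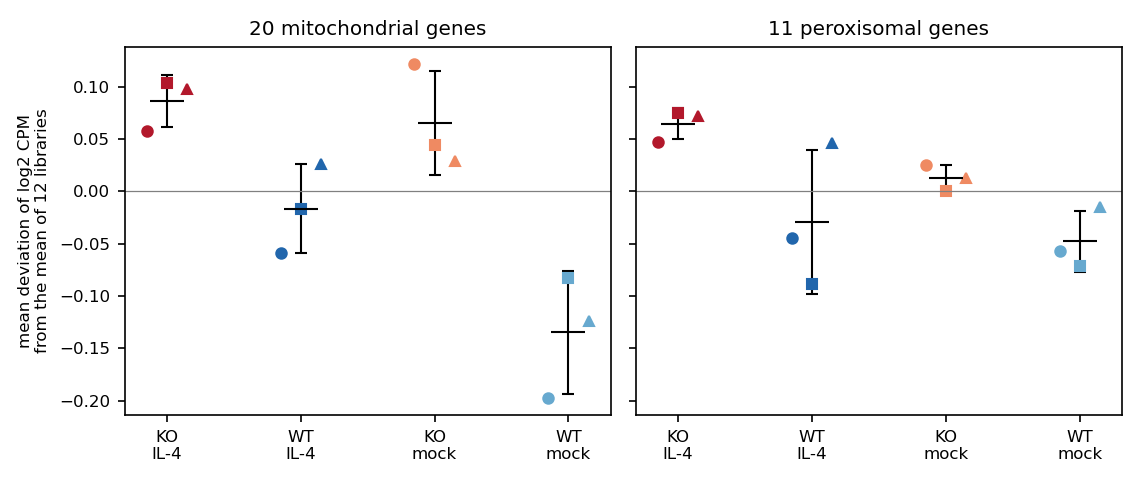
Mean deviation of log2 CPM per library, averaged over 20 mitochondrial genes (left) and 11 peroxisomal genes (right), with mean ± SD of 3 libraries per group. WT mock libraries are lowest for the mitochondrial genes, between -0.20 and -0.08, and the peroxisomal genes are spread less.

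Further genes related to each site were counted in the same way. Of 23 listed further genes of acyl-CoA metabolism, most of them mitochondrial and not all of them of breakdown, 21 were measured. In KO against WT mock cells 6 were higher and none lower (median 0.03), where 15.7% of all genes were higher and 18.8% lower. The smallest adjusted p there were those of Ivd, the isovaleryl-CoA dehydrogenase of leucine breakdown (0.39 ± 0.07, adjusted p = 0.000847), and Ech1 (0.43 ± 0.08, adjusted p = 0.00152), an enoyl-CoA hydratase-like isomerase that is also in the peroxisomal list. With IL-4 none was higher and 2 were lower in KO cells, where 8.57% and 10.2% of all genes were, among them Pccb, a subunit of propionyl-CoA carboxylase (-0.36 ± 0.08, adjusted p = 0.00435). For IL-4 against mock 1 was higher and 5 lower in KO cells (16% and 14.2% of all genes), and 4 higher and 2 lower in WT cells (13.6% and 13%). Acss1, the mitochondrial acetyl-CoA synthetase, was higher with IL-4 in both, at 0.87 ± 0.10, adjusted p = 8.50e-06 in KO cells and 0.98 ± 0.10, adjusted p = 2.56e-06 in WT cells.

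Of 33 listed further peroxisomal genes 28 were measured, and their counts and those of the Pex genes are read against the same shares of all genes. In KO against WT mock cells 11 were higher and 1 lower (median 0.20), and with IL-4 5 were higher and 2 lower (median 0.11). Idh1, an isocitrate dehydrogenase found in cytosol and peroxisomes, was higher in KO cells in both conditions, at 0.58 ± 0.07, adjusted p = 6.34e-05 in mock and 0.60 ± 0.07, adjusted p = 6.93e-05 with IL-4. Prdx5, a peroxiredoxin, was higher in mock at 0.66 ± 0.09, adjusted p = 8.62e-05. For IL-4 against mock 2 were higher and 8 lower in KO cells, and 4 higher and 2 lower in WT cells. Prdx5 was lower with IL-4 in KO cells, at -0.67 ± 0.09, adjusted p = 3.53e-05. All 13 further Pex genes were measured, of which 4 were higher and none lower in KO cells in each condition. Pex13 was higher in KO cells at 0.30 ± 0.08, adjusted p = 0.0126 in mock and 0.43 ± 0.08, adjusted p = 0.00237 with IL-4. Pex26, which anchors the import machinery that recycles Pex5, was higher with IL-4 at 0.95 ± 0.12, adjusted p = 3.40e-05 in KO cells and 1.08 ± 0.12, adjusted p = 8.98e-06 in WT cells.

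Promoter windows of the 250 bases before each RefSeq start (GRCm38.p6) were matched by symbol for 30 of the 37 genes and searched on both strands. The GC box GGGCGG was in 22 of 30, or 73.3%, against 63.7% of 9365 measured protein-coding genes. CCAAT was in 14, or 46.7%, against 41% of those genes. The NRF1 element, GCGC and TGCGC with 1 base between, was in Abcd3, Acad10, Etfb and Etfdh, or 13.3%, against 9.6%. The STAT6 element, TTC and GAA with 4 bases between, was in Abcd3 alone, against 5.71% of genes. No match was found in these windows for the PPAR element, which is AGGTCA repeated after 1 base (0.0427% of genes), or for its looser form AGGNCA repeated after 1 base (0.278%). None was found for the estrogen-related receptor element TCAAGGTCA (0.31%), the E-box CACGTG (10%), the cAMP response element TGACGTCA (3.09%) or the antioxidant response element, TGAC and GCA with 3 bases between (2.63%). The estrogen-related receptor and PPAR elements share the letters AGGTCA. A match describes letters and not a site. Crat, Abcd2, Hsd17b4, Pex19, Decr1, Acaa2 and Acad9 were not matched.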

How the data were processed

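RNA of 12 libraries of mouse bone marrow-derived macrophages (4 groups of 3, from the sample titles) was isolated with an RNeasy Micro kit, per the labels. Per the submitters' processing notes, build mm10 was used with bcl2fastq, STAR 2.7.2b, Subread 1.6.5, featureCounts and edgeR. Whether counting used strand is not given, so reads of overlapping genes cannot be told apart, and near-identical genes such as Acaa1a and Acaa1b may share reads. Per the file headers, the deposited values were raw counts of reads per gene and library, the counted length, and the authors' log2 fold changes with adjusted p-values. Of the 37 genes, the authors' deposited table called 15 higher and 4 lower in KO mock cells, 6 and 1 in KO cells with IL-4, 9 and 4 for IL-4 in WT cells and 4 and 5 in KO cells, and its log2 fold changes differed from those here by at most 0.00094.

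The quasi-likelihood test of edgeR 4.0.16 (R 4.3.3) was run on the counts with TMM factors (0.942 to 1.02) and 1 coefficient per group (8 residual degrees of freedom, common dispersion 0.0115). P-values were two-sided and Benjamini-Hochberg adjusted over all 13715 genes, and ± after a fold change is its standard error. CPM and RPKM use TMM library sizes, and log2 CPM a prior count of 2. The table's rows are already filtered (lowest total 50 counts), and filterByExpr removed 0 genes. Totals ran from 30651627 to 39136822 counts. The 37 genes and all lists were chosen with earlier results of these data known. Every member could be named, with values per sample for the largest called changes of each comparison and for 10 set genes. Outside the set up to 2 genes per list and comparison with the smallest adjusted p were named.

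Replicate numbers were treated as linking a mock library to its IL-4 partner, since deviations from group means correlated at 0.551, 0.579 and 0.518 in KO and 0.229, 0.491 and 0.406 in WT cells over 8126 genes. Between KO and WT libraries of a number they ran from -0.319 to 0.175. Alternatives were DESeq2 1.42.0, RLE size factors, library size alone, a minimum mean of 1 CPM, the compared groups alone, the replicate block, a lowess correction for gene length (span 0.3) and leaving out each library. The test and the length correction were checked on simulated counts of independent libraries, for KO against WT in mock alone. That check does not cover the IL-4 comparisons, the interaction or the replicate block. Promoter sequences are RefSeq's (GRCm38.p6).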

Additional observations from a re-analysis of the deposited data

Results flagged for a closer look

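The IL-4 change of Abcd2 differed between the genotypes by the test of the difference itself, with a log2 fold change in KO cells minus that in WT cells of 0.76 ± 0.16, adjusted p = 0.0462. The call was lost in 10 of 12 fits that left out 1 library. It was also lost without both libraries of KO replicate 2 (adjusted p = 0.133), where the interaction called 0 of all genes. For Cpt1a every KO pair changed upward and every WT pair downward with IL-4, and the mean changes differed by 0.28 in log2 CPM. The interaction did not call it (adjusted p = 0.298), and the fit with the replicate number as a block did (adjusted p = 0.0310). After the correction for gene length the IL-4 change of Cpt1a was -0.02 in KO cells and -0.13 in WT cells. The directions then no longer differed. Acaa1a went the other way, with every KO pair slightly downward (-0.02, -0.02 and -0.06) and every WT pair upward (0.05, 0.38 and 0.08), and the mean changes differed by -0.20. The interaction gave it an adjusted p of 0.288. Groups of 3 libraries are too small for the test of single outlying samples, which was not run.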

How the results depend on the processing

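Counts of called genes among the 37 held within 1.5 times for KO against WT higher in both conditions (13 to 20 in mock and 4 to 7 with IL-4). Left-out libraries moved other counts: lower in KO mock 2 to 4, lower in KO with IL-4 0 to 2, higher and lower for IL-4 in KO cells 3 to 4 and 2 to 7, higher and lower for IL-4 in WT cells 5 to 11 and 1 to 4, and higher in the interaction 0 to 1. Correcting for gene length gave 2 lower genes for KO in mock and 3 for IL-4 in WT cells. The genes lower for IL-4 in WT cells numbered 3 with RLE size factors, and 2 each with a minimum mean of 1 CPM, with the compared groups alone and without both libraries of KO replicate 2. Without those libraries none of the 37 genes was lower for KO with IL-4 or higher in the interaction. In the interaction that fit called 0 of all genes in either direction, against 101 in the main fit. The replicate block by replicate number gave 0 genes lower for KO with IL-4, 7 higher for IL-4 in KO cells, and 2 higher and 2 lower in the interaction, where DESeq2 gave 1 lower. It rests on correlations of deviations between same-numbered libraries and did not pair KO with WT.

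The mitochondrial minus peroxisomal difference kept its sign without single libraries except for KO against WT with IL-4, where it ran from -0.007 to 0.038. As a median over genes it was 0.069 for KO against WT with IL-4, 0.12 for IL-4 in KO cells (a change of sign) and -0.025 for the interaction. Without Abcd2, an alternative chosen after seeing the data, it was 0.063 for KO against WT in mock, 0.15 and 0.20 for IL-4 in KO and WT cells (a change of sign in KO cells) and -0.056 for the interaction. For values above, the cause of each shift was not tested. No called value of a named gene of the set reversed. At the depth reached, the least counted member had 364 counts in its lowest library.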

Other observations

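Regulators and targets of fatty acid use were listed alongside the 37 genes. Of 25 listed regulators 23 were measured. Over all genes, KO mock cells had 15.7% higher and 18.8% lower than WT mock cells, KO cells with IL-4 had 8.57% higher and 10.2% lower than WT cells with IL-4, and the shares were 16% and 14.2% for IL-4 against mock in KO cells, and 13.6% and 13% in WT cells. In KO against WT cells 1 was higher and 5 lower in mock, and 2 were higher and 4 lower with IL-4. Acaca, the acetyl-CoA carboxylase whose product inhibits Cpt1a, was lower in KO cells in mock at -0.94 ± 0.18, adjusted p = 0.00120, and Tfeb, a factor for lysosomal genes, at -0.35 ± 0.07, adjusted p = 0.00145. With IL-4 Ppargc1b, the gene of PGC-1β, was lower in KO than in WT cells at -0.67 ± 0.10, adjusted p = 0.000281. For IL-4 against mock 7 were higher and none lower in KO cells, and 5 higher and 1 lower in WT cells. Ppargc1b was higher with IL-4 at 1.88 ± 0.11, adjusted p = 1.08e-08 in KO cells and 2.11 ± 0.10, adjusted p = 2.26e-09 in WT cells. Pparg was higher at 0.97 ± 0.07, adjusted p = 1.65e-07 in KO cells and 0.83 ± 0.07, adjusted p = 6.71e-07 in WT cells. The median over the 23 genes was 0.23 in KO cells and -0.04 in WT cells, against 0.004 and -0.02 over all genes. The interaction called 0 of the 23 as higher and 0 as lower.

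Of 10 listed PPAR targets outside the set 8 were measured, and 5 were higher and 1 lower in KO cells in each condition. Hilpda, an inhibitor of triglyceride breakdown on lipid droplets, was higher at 2.699 ± 0.11, adjusted p = 7.27e-09 in mock and 2.90 ± 0.11, adjusted p = 3.48e-09 with IL-4. Angptl4, an inhibitor of lipoprotein lipase, gave 0.89 ± 0.10, adjusted p = 2.01e-05 and 1.18 ± 0.10, adjusted p = 3.49e-06. IL-4 lowered 4 of these genes and raised 3 in KO cells, and lowered 5 and raised 2 in WT cells, with Angptl4 at -0.78 ± 0.10, adjusted p = 2.68e-05 in WT cells. Of 13 listed genes of fatty acid uptake and release 12 were measured, with 3 higher and 4 lower in KO cells in mock and 3 higher and 3 lower with IL-4. The scavenger receptor Cd36, which is in both lists, was higher in KO mock cells at 0.71 ± 0.10, adjusted p = 0.000129, and the lipoprotein lipase Lpl was lower at -0.78 ± 0.11, adjusted p = 0.000164 in mock and -1.09 ± 0.11, adjusted p = 1.82e-05 with IL-4. IL-4 raised 2 and lowered 4 in KO cells and raised 1 and lowered 6 in WT cells, with Fabp3 at -1.09 ± 0.22, adjusted p = 0.00189 in KO cells.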
